A study of Mus musculus with 19 samples.

Results

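Transcripts of 36 genes of blood coagulation and fibrinolysis were followed in mouse liver. These members are a list of named clotting factors, their cofactors and inhibitors, the plasmin system and the enzymes of the vitamin K cycle. They were taken from the 31053 genes of the count table by matching Ensembl identifiers to symbols, with no threshold on a measured value. All 36 were in the table, and 29 of them had enough counts for the test across all genes.

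The libraries came from livers of male C57BL/6 mice aged 6 to 8 weeks at the start, of the strain C57BL6J, in 3 groups. Vehicle mice received PBS (n = 5). AAV-GFP mice (n = 7) received rising doses of thioacetamide (TAA), a hepatotoxin that causes liver fibrosis, over 12 weeks and, once 10 weeks of TAA had passed, an AAV8 vector carrying eGFP behind the TBG promoter, which is active in hepatocytes. AAV-miR-34b/c mice (n = 7) had the same course of TAA and were given AAV8 vectors for miR-34b and for miR-34c together, behind the same promoter. Both TAA groups were sacrificed 4 weeks after the vectors. Set against AAV-GFP, the AAV-miR-34b/c group addresses what the microRNAs did in injured liver. TAA and a vector both separate these groups from vehicle, so that their effects cannot be told apart there. The records call the libraries of a group biological replicates.

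The libraries were made from the 3' ends of polyadenylated RNA (QuantSeq) and held 2214073 to 5208405 counts each, with medians of 2858900 counts for vehicle, 3116304 for AAV-GFP and 3040202 for AAV-miR-34b/c. Levels are given in CPM (counts relative to the total of the library, scaled by TMM over all 19 libraries). Because reads come from the 3' end, a level depends little on transcript length, but levels are compared here only within a gene. Hepatocyte markers were abundant in every group, at a summed 66600 to 86200 CPM in vehicle and AAV-GFP and 53500 to 91500 CPM in AAV-miR-34b/c for the 11 of 12 markers in the table. Platelet and megakaryocyte markers were near 0, at a summed 4.28 to 15.2 CPM for 12 genes. In bulk liver, fewer cells of a type and less RNA per cell cannot be told apart. Some libraries of a group resembled each other more than the rest did. Vehicle replicates 1 and 4, vehicle replicates 3 and 5, AAV-GFP replicates 1 and 2, and AAV-miR-34b/c replicates 1 and 2, 3 and 4, and 5 and 7 had a coefficient of variation beyond counting noise of 0.0784 to 0.152, where every other pair within a group had at least 0.206. These pairs differed by more than counting noise (chi-square per gene of at least 3.14), which does not tell whether they came from separate mice. They were kept separate because the records call all libraries biological replicates, and calls that are lost when each pair is summed are named below.

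Clotting ends when thrombin cuts fibrinogen to fibrin, which factor XIII then cross-links. Thrombin is made from prothrombin by a chain of serine proteases, several of which are carboxylated in a vitamin K-dependent step in the liver and work on cofactors. Antithrombin, the protein C pathway and the protein Z system limit the chain, and plasmin, made from plasminogen, dissolves the clot. Hepatocytes secrete most of these proteins into plasma, and the 3 fibrinogen chains are also acute phase proteins, whose genes respond to interleukin-6 and glucocorticoids. Endothelial cells, platelets and other cells supply some of the others, such as von Willebrand factor, thrombomodulin and tissue factor.

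The fibrinogen genes lie next to each other on chromosome 3 of GRCm38, in the order *Fgg*, *Fga*, *Fgb*, within 42.1 kb (83007724 to 83049863). *Fgg* and *Fga* are on the plus strand and *Fgb* is on the minus strand. Their promoters are shown because the 3 genes moved together. Each sequence is from RefSeq (GRCm38.p6), runs 5' to 3' on the gene's own strand from 250 bases before the start of the gene to 50 bases after it, and has the letters CTGGGA, a core of the interleukin-6 response element described in fibrinogen promoters, or their reverse complement TCCCAG in capitals. They lie at chr3:83025903-83026202 for *Fga*, chr3:83049814-83050113 (minus strand) for *Fgb* and chr3:83007474-83007773 for *Fgg*.
Fga: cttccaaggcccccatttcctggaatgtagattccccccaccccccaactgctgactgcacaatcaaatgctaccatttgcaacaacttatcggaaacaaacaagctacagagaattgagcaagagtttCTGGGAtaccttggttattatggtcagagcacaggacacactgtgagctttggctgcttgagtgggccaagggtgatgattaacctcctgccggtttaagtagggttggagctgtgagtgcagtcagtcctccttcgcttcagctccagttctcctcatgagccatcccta
Fgb: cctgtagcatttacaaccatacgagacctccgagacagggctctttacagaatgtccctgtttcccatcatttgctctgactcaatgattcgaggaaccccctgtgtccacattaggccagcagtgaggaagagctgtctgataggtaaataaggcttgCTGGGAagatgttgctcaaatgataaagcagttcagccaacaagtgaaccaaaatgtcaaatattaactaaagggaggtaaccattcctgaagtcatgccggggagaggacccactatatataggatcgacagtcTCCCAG
Fgg: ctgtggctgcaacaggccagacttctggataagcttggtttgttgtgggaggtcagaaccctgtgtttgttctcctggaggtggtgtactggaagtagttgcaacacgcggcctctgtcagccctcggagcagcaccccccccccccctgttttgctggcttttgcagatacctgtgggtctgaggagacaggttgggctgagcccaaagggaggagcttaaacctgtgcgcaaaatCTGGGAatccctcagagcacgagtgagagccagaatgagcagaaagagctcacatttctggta
The first match began 121 bases before the start in *Fga*, 91 in *Fgb* and 13 in *Fgg*, and *Fgb* had a further match on the opposite strand at the end of its window. A promoter was found in the RefSeq table for 28 members. CTGGGA on either strand was present in 14 of these, among them the 6 with a promoter that were called higher between the TAA groups (*Fga*, *Fgb*, *Fgg*, *F2*, *Kng2* and *Cpb2*) and 8 of the other 22. Of all 32851 promoters of this length in the table, 31.8% held it, a share per promoter, whereas a member with several promoters was counted once if any held it. In *F2*, *Kng2* and *Cpb2* the only match lay after the start of the gene as RefSeq places it, which for *F2* and *Kng2* is not the start in GENCODE. A match of these letters is a description and not a binding site.

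Genes were called at a Benjamini-Hochberg adjusted p under 0.05 in edgeR's quasi-likelihood test over all genes tested. In livers of AAV-GFP-injected mice, 4 members fell relative to vehicle: *F13b*, *F7*, *Serpina10* and *Kng2*. Called members were thus 4 of 29 (13.8%), with 0 higher, against a background of 12.7% of 9522 genes called (7.54% higher and 5.19% lower). In either direction together, the share called was close to that of all genes. At an unadjusted p under 0.05, 1 member was higher (*Proc*), and DESeq2 also called 0 higher. The median log2 fold change of the 29 was -0.23, beside -0.01 over all genes tested, and 22 of the 29 fitted values were below 0.

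When the 2 TAA groups were compared, 8 members were higher with AAV-miR-34b/c than with AAV-GFP, here called a rise: the fibrinogen chains *Fga*, *Fgb* and *Fgg*, *F2*, *Kng1*, *Kng2*, *Serpina10* and *Cpb2*. These 8 of 29 (27.6%) stood against a background of 3.36% of 9252 genes called (1.95% higher and 1.42% lower). None was called lower (0 members in edgeR and 0 in DESeq2, with *F11* and *Klkb1* lower at an unadjusted p under 0.05). The median log2 fold change was 0.39 over the members and -0.01 over all genes tested. Normalization by library size only left 5 members called, and without AAV-GFP replicate 1 there were 3.

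In the AAV-miR-34b/c group, 6 members were higher than in vehicle (*Fgb*, *Fgg*, *F12*, *Proc*, *Plg* and *Serpinf2*) and 3 were lower (*F13b*, *F11* and *Klkb1*). The 9 of 29 called (31.0%) compare with 21.9% of 9290 genes (12.2% higher and 9.75% lower). With library size only in place of TMM the division was 4 higher and 5 lower, and the median of all genes moved from 0.02 to -0.13. Without vehicle replicate 5 or without AAV-miR-34b/c replicate 4, 5 members were called. Summing the close pairs left 0 members called in both comparisons with vehicle and 2 (*Fgb* and *Serpina10*) between the TAA groups. The vehicle and AAV-GFP libraries each enter more than 1 comparison, so that the lists are given side by side only.

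**Figure D1:**
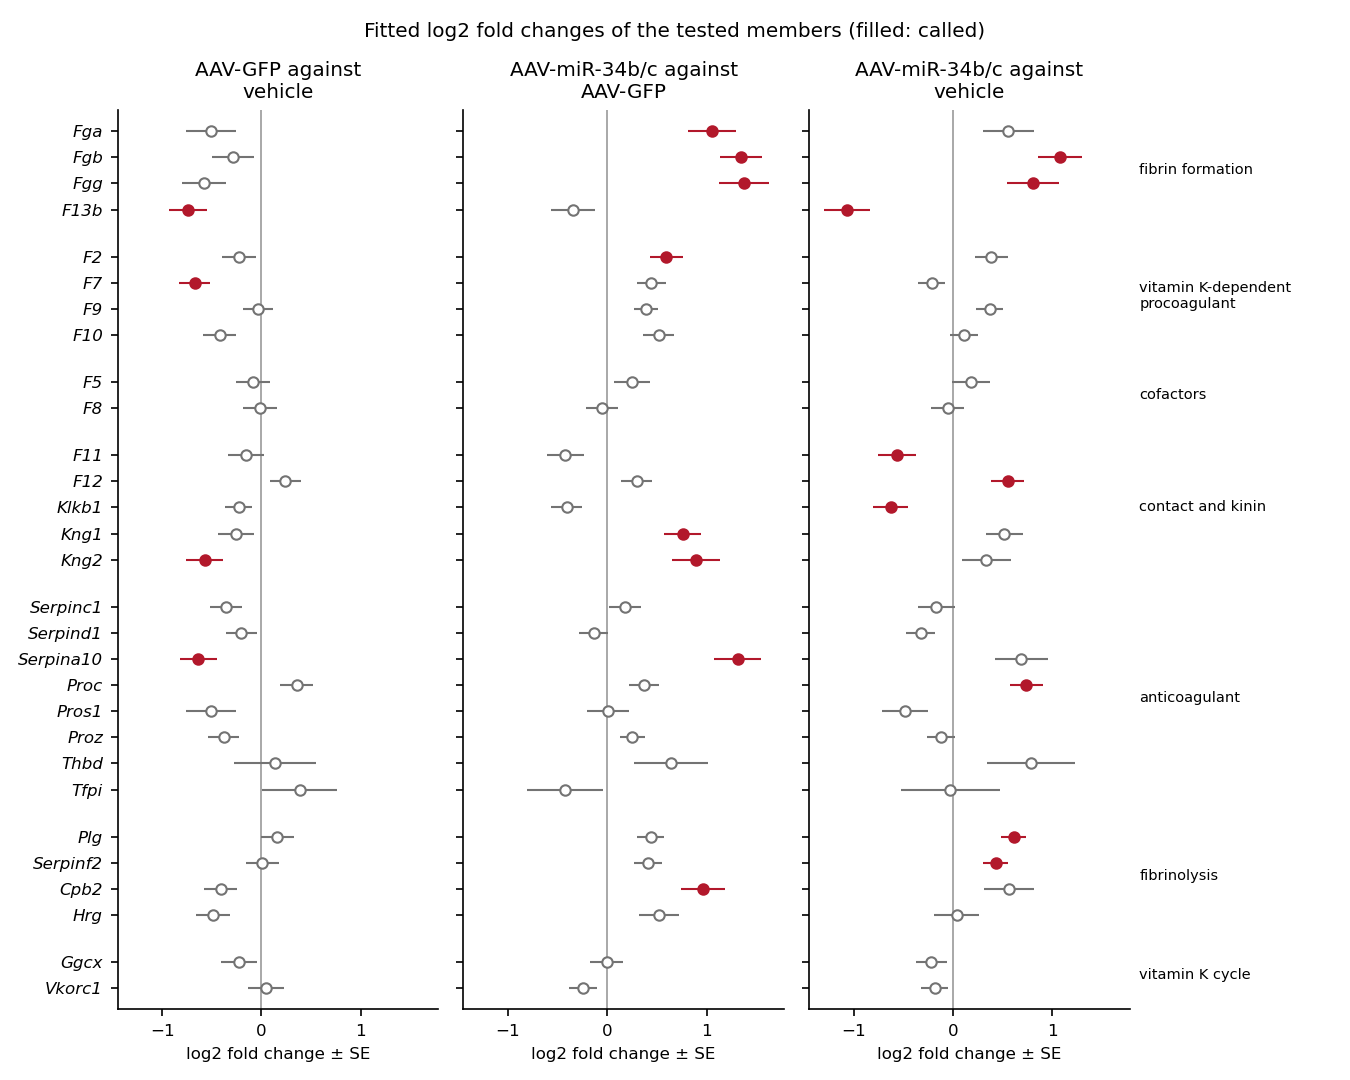
Fitted log2 fold changes (points) with their SEs (bars) of the 29 tested members, ordered by role, in the 3 comparisons. Filled red points are called at an adjusted p under 0.05; in the middle panel the fibrinogen chains and *Serpina10* lie between 1.06 and 1.38.

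*Fgb* encodes the beta chain of fibrinogen. Its levels in vehicle replicates 1 to 5 were 16300, 10900, 10200, 15900 and 12200 CPM. AAV-GFP libraries ranged from 7870 to 16300 CPM (median 9630) and AAV-miR-34b/c libraries from 16400 to 34700 CPM (median 30800). All 7 AAV-miR-34b/c libraries were above all AAV-GFP and all vehicle libraries, although the lowest, replicate 7, was close to the highest of both other groups. The log2 fold change against AAV-GFP was 1.35 (standard error, SE, 0.21; 2.55-fold; edgeR adjusted p = 0.00114). A two-sided exact permutation test on log2 CPM gave p = 0.000583, which no test of 7 against 7 libraries can go below, and p from this test is given for the other genes as exact permutation p. It was called in all 14 fits that left out 1 library and in all 8 other alternatives. Against vehicle it was 1.07 (SE 0.22, edgeR adjusted p = 0.0039), a call lost with the close pairs summed and with the clock score described below. AAV-GFP and vehicle overlapped (log2 fold change -0.29, SE 0.21, edgeR adjusted p = 0.376).

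*Fgg*, which encodes the gamma chain, was at 4370, 3170, 2890, 4500 and 2950 CPM in the vehicle libraries. It ranged from 1540 to 3430 CPM (median 2240) with AAV-GFP and from 3360 to 9360 CPM (median 6570) with AAV-miR-34b/c. Only AAV-miR-34b/c replicate 5 fell within the AAV-GFP range, and 5 of the 7 AAV-miR-34b/c libraries were above all vehicle libraries. The log2 fold change was 1.38 (SE 0.26, 2.60-fold, edgeR adjusted p = 0.00431; exact permutation p = 0.00117) between the TAA groups and 0.81 (SE 0.26, edgeR adjusted p = 0.0354) against vehicle. The first was called in all 14 fits without 1 library and lost with the close pairs summed (log2 fold change 1.27, edgeR adjusted p = 0.05 after rounding). The second was called in 7 of 12 such fits and lost without vehicle replicate 2, 3 or 5 and without AAV-miR-34b/c replicate 3 or 4 (edgeR adjusted p up to 0.0842). It was also lost with the close pairs summed (edgeR adjusted p = 0.164) and with the clock score, where the fitted value was 0.08 (edgeR adjusted p = 0.858).

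The alpha chain gene, *Fga*, was at 5120, 2360, 2850, 5030 and 3220 CPM in vehicle, 1670 to 3970 CPM (median 2420) in AAV-GFP and 3120 to 7020 CPM (median 6280) in AAV-miR-34b/c. AAV-miR-34b/c replicates 5 and 7, at 3170 and 3120 CPM, lay within the AAV-GFP range, and the other 5 were above it. Its rise over AAV-GFP was 1.06 on the log2 scale (SE 0.25, 2.08-fold, edgeR adjusted p = 0.0189; exact permutation p = 0.00408), which missed the threshold without AAV-GFP replicate 1 (edgeR adjusted p = 0.0512). Neither group of TAA-treated mice was called against vehicle, with log2 fold changes of -0.51 (SE 0.25) for AAV-GFP and 0.56 (SE 0.26) for AAV-miR-34b/c. Together the 3 chains took 2.08% ± 0.464 (SD, n = 5) of all counts in vehicle, 1.67% ± 0.464 (SD, n = 7) in AAV-GFP and 3.57% ± 0.791 (SD, n = 7) in AAV-miR-34b/c.

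**Figure D2:**
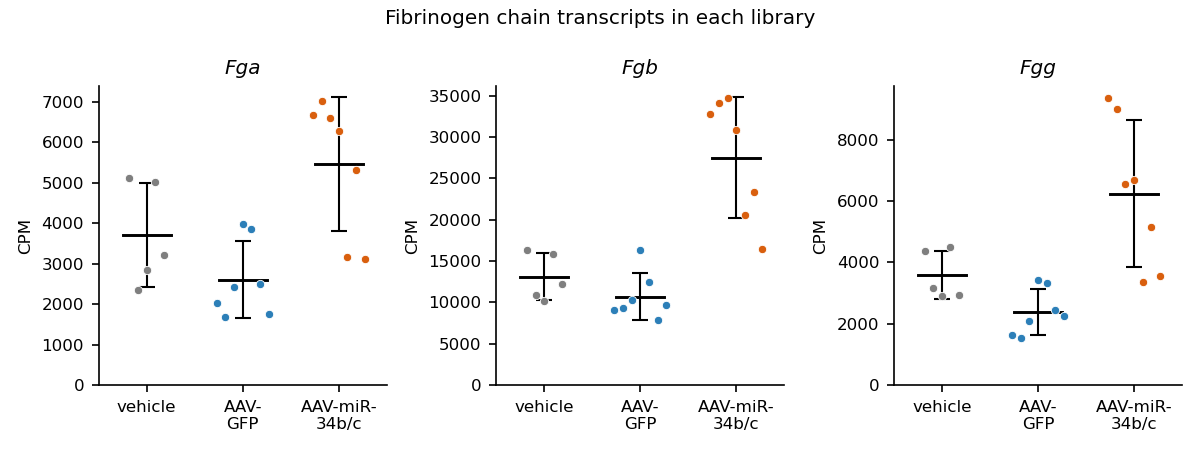
Levels of the 3 fibrinogen chain transcripts (CPM, linear axes from 0) in every library of the 3 groups, in order of replicate number within a group, with the group mean (line) and SD (bars). The 7 AAV-miR-34b/c libraries of *Fgb* lie above all others, while in *Fga* 2 of them lie among the AAV-GFP libraries.

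*F13b*, which encodes the carrier subunit of plasma factor XIII, was lower than vehicle in both TAA groups. It was at 494, 663, 366, 556 and 415 CPM in vehicle. It ranged from 222 to 427 CPM (median 253) in AAV-GFP and from 126 to 369 CPM (median 209) in AAV-miR-34b/c. Most libraries of both TAA groups were under the lowest vehicle library. The log2 fold change against vehicle was -0.74 (SE 0.19, edgeR adjusted p = 0.0173; exact permutation p = 0.0101) for AAV-GFP and -1.07 (SE 0.23, edgeR adjusted p = 0.0049; exact permutation p = 0.00379) for AAV-miR-34b/c. The first missed the threshold without vehicle replicate 2 or 4 (edgeR adjusted p up to 0.0564), and the second held in all 12 fits without 1 library. Both were lost with the close pairs summed, and the first also with the clock score. Between the TAA groups it was not called (log2 fold change -0.34, SE 0.22, edgeR adjusted p = 0.514). *F13a1*, the catalytic subunit, which is made by macrophages and megakaryocytes, had 0 to 10 counts per library, with 0 in 11 libraries, and did not pass edgeR's filter (exact permutation p of at least 0.152). A count of 0 allows up to 3 counts, which is 0.608 to 1.33 CPM in these libraries and covers counting error only.

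Of the vitamin K-dependent procoagulant proteases, prothrombin (*F2*) was at 1400, 1060, 1060, 1420 and 1240 CPM in vehicle, 787 to 1350 CPM (median 1050) in AAV-GFP and 1110 to 1980 CPM (median 1660) in AAV-miR-34b/c. The groups overlapped through AAV-miR-34b/c replicate 6, at 1110 CPM. The log2 fold change between the TAA groups was 0.60 (SE 0.16, edgeR adjusted p = 0.0473; exact permutation p = 0.00233). This call was close to the threshold and held in 3 of 14 fits without 1 library, with edgeR adjusted p from 0.025 to 0.112. It held with DESeq2 and with all 3 groups in one fit and was lost in the other 6 alternatives, with edgeR adjusted p up to 0.379. It was not called against vehicle in either TAA group (-0.22 and 0.39, SEs 0.17 and 0.16).

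*F7*, whose protease starts the extrinsic pathway with tissue factor, fell in AAV-GFP. Vehicle libraries were at 162, 168, 179, 176 and 130 CPM. All 7 AAV-GFP libraries, from 73.3 to 123 CPM (median 106), were below them. AAV-miR-34b/c libraries, from 111 to 168 CPM (median 136), overlapped both groups, with 6 of the 7 above all AAV-GFP libraries. The log2 fold change of AAV-GFP against vehicle was -0.67 (SE 0.16, edgeR adjusted p = 0.0106; exact permutation p = 0.00126, a value that 7 against 5 libraries cannot go below), which held in all 12 fits without 1 library and was lost with the close pairs summed (edgeR adjusted p = 0.0872). Between the TAA groups it was 0.45 (SE 0.14), not called by edgeR (adjusted p = 0.0995) and called by DESeq2 (adjusted p = 0.039). *F9* and *F10*, the proteases of the tenase and prothrombinase complexes, were not called in any comparison. *F9* ranged from 344 to 623 CPM over all libraries, with a log2 fold change of 0.39 between the TAA groups (SE 0.12, edgeR adjusted p = 0.0931), and *F10* from 439 to 962 CPM, with 0.52 (SE 0.16, edgeR adjusted p = 0.076). *F7*, *F10* and *Proz* are neighbours on chromosome 8 (13026034 to 13076026, plus strand).

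Among the initiator and the cofactors, none passed the threshold. *F5*, the cofactor of factor Xa, ranged from 396 to 910 CPM over all libraries, with a log2 fold change between the TAA groups of 0.25 (SE 0.18). AAV-miR-34b/c replicates 1 and 2, at 509 and 441 CPM, were apart from the other 5 libraries of that group, at 756 to 910 CPM. *F8*, the cofactor of factor IXa and a product of endothelial cells, ranged from 18.2 to 32.6 CPM, with log2 fold changes of -0.01 to -0.06 in the 3 comparisons (SEs 0.16 to 0.17). Tissue factor (*F3*, 0 to 7 counts per library) and von Willebrand factor (*Vwf*, 1 to 15 counts) did not pass edgeR's filter, and their exact permutation p was at least 0.0781.

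Calls among the contact and kinin genes differed in direction and in comparison. Those called higher between the TAA groups were *Kng1* and *Kng2*, whereas *Klkb1* and *F11* (lower) and *F12* (higher) were called only in AAV-miR-34b/c compared with vehicle. *Kng1* encodes kininogen, the precursor of bradykinin, and *Kng2* is its second mouse copy. *Kng1* was at 3130, 2520, 2770, 3030 and 2310 CPM in vehicle, 1470 to 3010 CPM (median 2270) in AAV-GFP and 2780 to 5320 CPM (median 3730) in AAV-miR-34b/c. Only AAV-miR-34b/c replicate 5 lay within the AAV-GFP range. Its rise over AAV-GFP of 0.76 (SE 0.19, 1.69-fold, edgeR adjusted p = 0.0267; exact permutation p = 0.00117) was called in 9 of 14 fits without 1 library and missed the threshold without AAV-GFP replicate 1, 2 or 3 or AAV-miR-34b/c replicate 1 or 4 (edgeR adjusted p up to 0.0627). Against vehicle, *Kng1* was not called in either TAA group (AAV-GFP -0.25, SE 0.18; AAV-miR-34b/c 0.52, SE 0.19, edgeR adjusted p = 0.0555).

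*Kng2* was at 519, 423, 443, 453 and 347 CPM in vehicle, 199 to 404 CPM (median 279) in AAV-GFP and 330 to 912 CPM (median 475) in AAV-miR-34b/c. AAV-miR-34b/c replicates 1 and 2, at 881 and 912 CPM, were well above the other 5, at 330 to 479 CPM, of which replicates 5 and 7 lay within the AAV-GFP range. It fell by 0.57 on the log2 scale between vehicle and AAV-GFP (SE 0.18, edgeR adjusted p = 0.0458) and rose by 0.90 between AAV-GFP and AAV-miR-34b/c (SE 0.24, edgeR adjusted p = 0.0471). Both calls were close to the threshold and held in 4 of 12 and 5 of 14 fits without 1 library (edgeR adjusted p up to 0.137 and 0.103). In a window at the 3' ends, 1.0% of the 100-base stretches of *Kng1* and 3.0% of those of *Kng2* occur in the other copy, so that few reads could be shared.

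*Klkb1*, which encodes plasma prekallikrein, and *F11*, its neighbour on chromosome 8 (45241174 to 45294859, minus strand), were lower with AAV-miR-34b/c than with vehicle. *Klkb1* was at 344, 383, 317, 307 and 309 CPM in vehicle, 258 to 308 CPM (median 281) in AAV-GFP and 153 to 298 CPM (median 205) in AAV-miR-34b/c. All AAV-miR-34b/c libraries were below all vehicle libraries (log2 fold change -0.63, SE 0.17, edgeR adjusted p = 0.0176; exact permutation p = 0.00379), which held in all 12 fits without 1 library and was lost with the close pairs summed and with the clock score. The other differences of *Klkb1* were not called, at -0.23 for AAV-GFP against vehicle (SE 0.14) and -0.41 between the TAA groups (SE 0.16, edgeR adjusted p = 0.184).

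*F11* was at 21.8, 24.7, 23.5, 27.9 and 25.9 CPM in vehicle, 17.3 to 30.6 CPM (median 20.9) in AAV-GFP and 11.6 to 22.0 CPM (median 17.8) in AAV-miR-34b/c. It rests on 29 to 115 counts per library. Its log2 fold change of -0.57 against vehicle (SE 0.19, edgeR adjusted p = 0.0422) overlapped at 1 library only, AAV-miR-34b/c replicate 7, and held in 3 of 12 fits without 1 library (edgeR adjusted p up to 0.108). The other comparisons gave -0.16 and -0.42 (SEs 0.18 and 0.19, not called). *F12*, which encodes the factor that starts the contact pathway, went up instead. It was at 452, 461, 544, 439 and 413 CPM in vehicle, 404 to 658 CPM (median 552) in AAV-GFP and 481 to 893 CPM (median 699) in AAV-miR-34b/c. The 2 AAV-miR-34b/c libraries inside the vehicle range were replicates 1 and 2, and the log2 fold change against vehicle was 0.55 (SE 0.17, edgeR adjusted p = 0.0269; exact permutation p = 0.0126). That call held in 7 of 12 fits and was lost without vehicle replicate 1, 4 or 5 or AAV-miR-34b/c replicate 4 or 6 (edgeR adjusted p up to 0.069). The other 2 comparisons of *F12* gave 0.24 and 0.30 (SE 0.16 each, not called).

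*Serpina10*, an anticoagulant gene, was called in both comparisons with AAV-GFP. It encodes the protein Z-dependent protease inhibitor, which blocks factor Xa. Vehicle libraries were at 738, 409, 511, 684 and 462 CPM. AAV-GFP libraries ranged from 280 to 482 CPM (median 370) and AAV-miR-34b/c libraries from 486 to 1380 CPM (median 940). Every AAV-miR-34b/c library was above every AAV-GFP library, with replicates 5 and 7, at 492 and 486 CPM, just above. The log2 fold change was 1.31 (SE 0.24, 2.48-fold, edgeR adjusted p = 0.00331, exact permutation p = 0.000583). This call held in all 14 fits without 1 library and with the close pairs summed, and was lost with the replicate block (edgeR adjusted p = 0.0585). AAV-GFP was lower than vehicle by a fitted -0.63 (SE 0.19, edgeR adjusted p = 0.0305), a call that held in 7 of 12 fits and was lost without vehicle replicate 1 or 4 or AAV-GFP replicate 1, 2 or 3 (edgeR adjusted p up to 0.117). Against vehicle, AAV-miR-34b/c was at 0.69 (SE 0.27, edgeR adjusted p = 0.072, not called). *Proz*, the partner of this inhibitor, ranged from 96.7 to 209 CPM over all libraries and was not called (-0.38 for AAV-GFP against vehicle and 0.25 between the TAA groups, SEs 0.16 and 0.13).

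*Proc*, which encodes protein C, the protease that inactivates factors Va and VIIIa, was at 194, 219, 284, 199 and 246 CPM in vehicle, 228 to 378 CPM (median 275) in AAV-GFP and 252 to 448 CPM (median 404) in AAV-miR-34b/c. It was higher with AAV-miR-34b/c than with vehicle by 0.74 (SE 0.17, 1.67-fold, edgeR adjusted p = 0.00625; exact permutation p = 0.00379), with overlap at AAV-miR-34b/c replicate 2 alone, and this held in all 12 fits without 1 library and was lost with the close pairs summed. The steps from vehicle to AAV-GFP and from AAV-GFP to AAV-miR-34b/c, 0.36 and 0.37 (SEs 0.16 and 0.15), were not called.

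The remaining anticoagulant members were not called in any comparison. Antithrombin (*Serpinc1*), the main inhibitor of thrombin, ranged from 1250 to 2440 CPM over all libraries, heparin cofactor II (*Serpind1*) from 228 to 448 CPM and protein S (*Pros1*), the cofactor of protein C, from 50.4 to 164 CPM. Their log2 fold changes between the TAA groups were 0.18, -0.14 and 0.01 (SEs 0.16, 0.15 and 0.21). Thrombomodulin (*Thbd*, 3 to 26 counts per library) and tissue factor pathway inhibitor (*Tfpi*, 3 to 39 counts) had wide errors, with log2 fold changes of 0.64 (SE 0.37) and -0.43 (SE 0.38) between the TAA groups. The endothelial protein C receptor (*Procr*, 0 to 12 counts) did not pass edgeR's filter (exact permutation p of at least 0.582).

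Plasminogen (*Plg*), the precursor of plasmin, varied least of the tested members among vehicle libraries, at 1380, 1440, 1460, 1330 and 1480 CPM. It ranged from 1220 to 2000 CPM (median 1540) in AAV-GFP and from 1930 to 2420 CPM (median 2180) in AAV-miR-34b/c. All AAV-miR-34b/c libraries were above all vehicle libraries, by 0.61 on the log2 scale (SE 0.13, 1.53-fold, edgeR adjusted p = 0.0039; exact permutation p = 0.00126), and this held in all 12 fits without 1 library. With the close pairs summed it was not called (edgeR adjusted p = 0.108). Over AAV-GFP it was at 0.44 (SE 0.14), not called by edgeR (adjusted p = 0.0899) but called by DESeq2 (adjusted p = 0.0105) and with all 3 groups in one edgeR fit (adjusted p = 0.0444), with a single AAV-GFP library, replicate 4, inside the range of AAV-miR-34b/c (exact permutation p = 0.00117). AAV-GFP against vehicle gave 0.16 (SE 0.16, not called).

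*Serpinf2* encodes antiplasmin, the fast inhibitor of plasmin. It was at 480, 379, 410, 452 and 419 CPM in vehicle, 347 to 618 CPM (median 424) in AAV-GFP and 487 to 647 CPM (median 591) in AAV-miR-34b/c. All AAV-miR-34b/c libraries were above all vehicle libraries, with a log2 fold change of 0.43 (SE 0.13, edgeR adjusted p = 0.0271), although replicate 6, at 487 CPM, was close to vehicle replicate 1. This call held in 7 of 12 fits and missed the threshold without vehicle replicate 2, 3, 4 or 5 or AAV-miR-34b/c replicate 4 (edgeR adjusted p up to 0.0621). Between the TAA groups it was 0.41 (SE 0.14, edgeR adjusted p = 0.139), and AAV-GFP was at the level of vehicle (0.01, SE 0.17).

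*Cpb2* encodes the carboxypeptidase that protects fibrin from plasmin (TAFI). It was at 508, 401, 370, 547 and 354 CPM in vehicle, 256 to 410 CPM (median 331) in AAV-GFP and 361 to 1040 CPM (median 663) in AAV-miR-34b/c. Replicates 5 and 7 of AAV-miR-34b/c, at 385 and 361 CPM, were within the AAV-GFP range and the other 5 above it. The rise over AAV-GFP was 0.96 (SE 0.22, 1.95-fold, edgeR adjusted p = 0.0193; exact permutation p = 0.00291) and missed the threshold without AAV-GFP replicate 1 (edgeR adjusted p = 0.051). Against vehicle *Cpb2* was not called (AAV-GFP -0.41, SE 0.17; AAV-miR-34b/c 0.56, SE 0.25). *Hrg*, which encodes the plasminogen-binding histidine-rich glycoprotein and lies beside *Kng2* and *Kng1* on chromosome 16 (22951072 to 23082078), ranged from 289 to 816 CPM. Its log2 fold changes were -0.49 for AAV-GFP against vehicle (SE 0.17, edgeR adjusted p = 0.0633) and 0.52 between the TAA groups (SE 0.20, edgeR adjusted p = 0.195), neither of them called. The plasminogen activators *Plat* and *Plau* and the urokinase receptor *Plaur* had at most 8, 7 and 7 counts in any library and did not pass edgeR's filter. *Plau* had 1 to 7 counts in vehicle, 0 to 4 in AAV-GFP and 0 to 4 in AAV-miR-34b/c, and its exact permutation p, not adjusted for the number of genes, against vehicle was 0.0467 in AAV-GFP and 0.00631 in AAV-miR-34b/c. *Plaur* had 0 to 2 counts in AAV-GFP and 0 to 7 in AAV-miR-34b/c (exact permutation p = 0.0286, not adjusted). These levels lie mostly at or under the floor of 3 counts, so that no fold is given. *Plat* had p of at least 0.0746 in the same test.

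**Figure D3:**
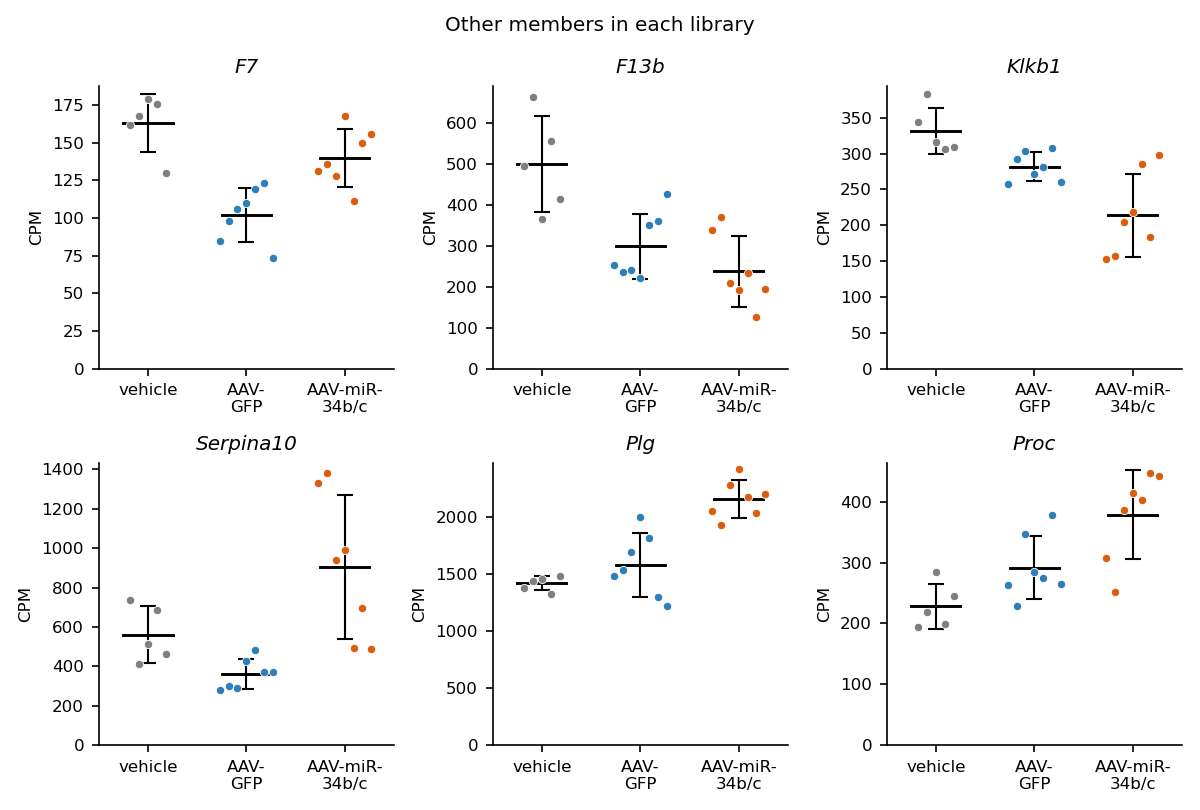
Levels of 6 further members (CPM, linear axes from 0) in every library, in order of replicate number within a group, with the group mean (line) and SD (bars). *F7* is lowest in AAV-GFP, *F13b* and *Klkb1* are lowest in AAV-miR-34b/c, and all 7 AAV-miR-34b/c libraries of *Plg* lie above all vehicle libraries.

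The vitamin K cycle did not pass the threshold in any comparison. *Ggcx*, the carboxylase that acts on the vitamin K-dependent factors, ranged from 32.6 to 64.4 CPM and *Vkorc1*, the reductase that warfarin inhibits, from 165 to 314 CPM over all libraries. Between the TAA groups the log2 fold changes were -0.01 (SE 0.16) and -0.24 (SE 0.14). At the 3' end, 55.7% of the 100-base stretches of *Vkorc1* also occur in the overlapping model *Gm21974*, which had 0 counts. Exons of *F5*, *Serpinc1* and *Plg* overlap those of *Gm16548* (618 counts in all libraries), *Zbtb37* (125 counts) and *Slc22a3* (77 counts), and the strand setting of the counting was not given in the sources used here.

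The members that rose between the TAA groups shared an order of libraries that the groups do not set. In all 8, AAV-miR-34b/c replicates 5 and 7 were both among the 3 lowest libraries of their group and replicates 1 and 2 both among the 3 highest. Among the 29 tested members, 15 had the first pattern and 17 the second, and *F5*, *F12*, *Klkb1* and *Proc* had replicates 1 and 2 as the 2 lowest of the group. In AAV-GFP, replicates 4 and 5 were both among the 3 highest in 7 of the 8, and in vehicle replicates 1 and 4 in 8 of the 8. Over the 29 tested members these 2 patterns held in 14 and 17. Vehicle replicates 1 and 4 and AAV-miR-34b/c replicates 1 and 2, and 5 and 7, are also close pairs over all genes. How often genes outside the list have these patterns was not counted. This order was noticed in the data and is a description only.

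**Figure D4:**
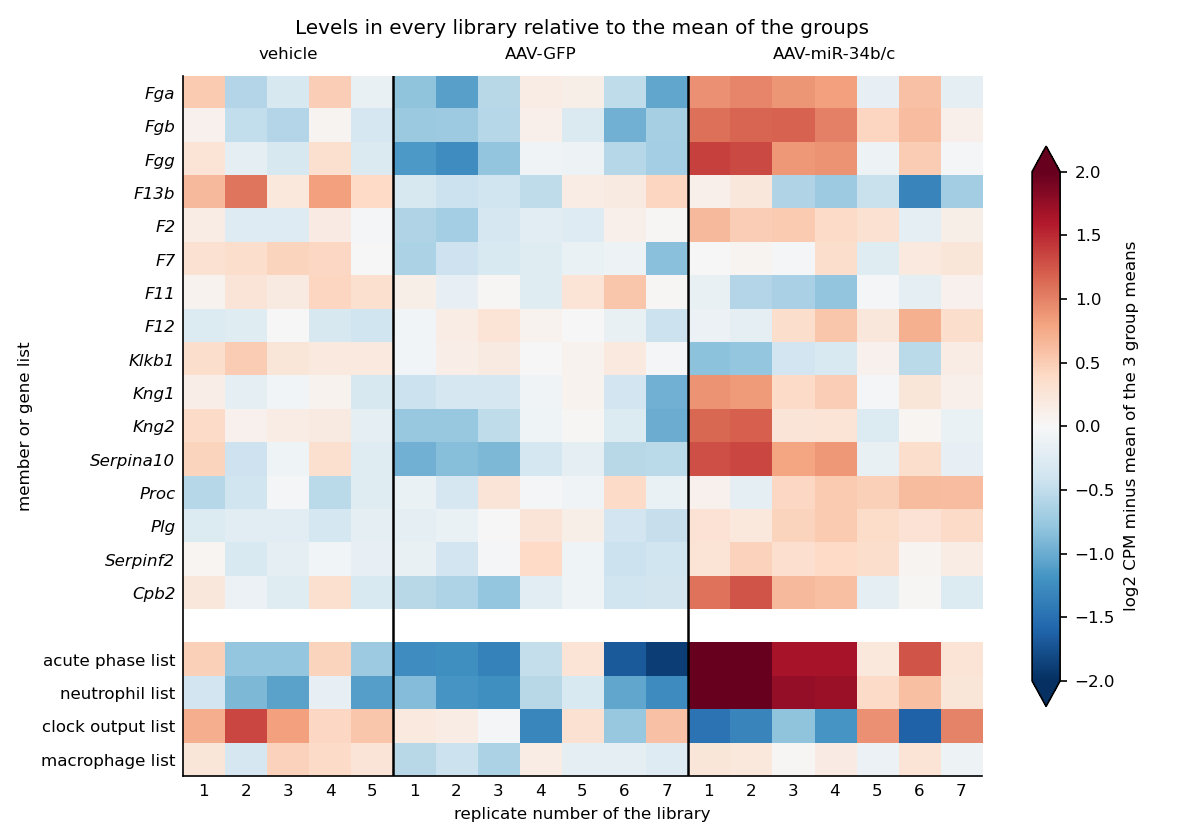
Level of each called member (log2 CPM) and of 4 gene lists (mean log2 CPM) in every library, minus the mean of the 3 group means; colours stop at 2 and -2. AAV-miR-34b/c replicates 1 to 4 are red for the fibrinogen chains, *Serpina10*, *Kng1* and *Cpb2* and beyond the scale or close to its end for the acute phase and neutrophil lists, and replicates 5 and 7 are paler in both.

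Acute phase genes moved with the same libraries. This list of 24 genes shares no member with the coagulation genes. Between the TAA groups 20 of its 24 genes were called higher, beside 1.95% of all genes tested, with a median log2 fold change of 1.98. Against vehicle, the list had 5 genes called lower and 1 higher in AAV-GFP (median -0.49), and 17 higher in AAV-miR-34b/c (median 1.56). Its mean log2 CPM was 9.36 and 9.43 in AAV-miR-34b/c replicates 5 and 7 and 10.4 to 11.4 in the other 5 libraries. In AAV-GFP it was highest in replicates 4 and 5 (8.68 and 9.43, others 7.26 to 7.92), and in vehicle in replicates 1 and 4 (9.63 and 9.60, others 8.37 to 8.43). Neutrophil markers followed as well, with a summed 192 to 3380 CPM over 12 genes in AAV-miR-34b/c, lowest in replicates 5 and 7, against 28.8 to 257 CPM in AAV-GFP and 37.7 to 214 CPM in vehicle. Each of these 12 was detected in some library of both TAA groups, and the 4 tested between them were all called higher. *Lcn2*, 1 of these 4, is also in the acute phase list. The part of the acute phase and of neutrophils in the members' differences was not tested.

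Clock output genes, which follow the time of day, had a mean log2 CPM over 11 genes of 4.16 to 5.08 in vehicle, 2.44 to 4.33 in AAV-GFP and 2.13 to 4.73 in AAV-miR-34b/c, where replicates 5 and 7 were the highest at 4.65 and 4.73 and the others at 2.13 to 2.94. With this mean as a covariate (the clock score), 1 member was called between AAV-GFP and vehicle, 4 between the TAA groups and 3 in AAV-miR-34b/c compared with vehicle. The calls lost between the TAA groups were *F2*, *Kng1*, *Kng2* and *Cpb2*, and there the scores of the groups overlapped. Every vehicle library but replicates 4 and 5 was above every AAV-GFP library, so that the score moved with the group in that comparison. The part of the time of day in the members' differences was not tested beyond these fits. Macrophage markers, a possible source of *F13a1*, had summed levels of 576 to 1090 CPM in vehicle, 488 to 802 CPM in AAV-GFP and 733 to 954 CPM in AAV-miR-34b/c, with 4 of 12 genes called lower between AAV-GFP and vehicle and 2 of 12 higher between the TAA groups. Stellate cell and myofibroblast markers were at a summed 342 to 526 CPM in vehicle, 391 to 515 CPM in AAV-GFP and 239 to 472 CPM in AAV-miR-34b/c, with 4 of 8 tested called higher between AAV-GFP and vehicle and 2 of 6 tested, *Col1a1* and *Col3a1*, lower between the TAA groups. Cholangiocyte markers were at 23.1 to 45.1 CPM in vehicle, 61.1 to 108 CPM in AAV-GFP and 54.3 to 126 CPM in AAV-miR-34b/c, with 2 of 3 tested called higher in AAV-GFP than in vehicle and 0 of 3 called between the TAA groups by edgeR, where 2 were lower at an unadjusted p under 0.05. The part of these cells in the members' differences was not tested. Endothelial markers, which mark a source of *F8*, *Vwf* and *Thbd*, were at 418 to 511, 422 to 575 and 484 to 686 CPM, with 1 of 12 called, higher, in each comparison with AAV-GFP and 3 of 12 (2 higher and 1, *Cdh5*, lower) in AAV-miR-34b/c compared with vehicle. Of 11 tested hepatocyte markers, 0 were called between the TAA groups by edgeR, where the median log2 fold change was 0.02. Against vehicle, *Hnf4a* was higher by 0.86 in AAV-GFP (edgeR adjusted p = 0.00538) and by 1.21 in AAV-miR-34b/c (edgeR adjusted p = 1e-04). *Cps1* was lower in AAV-miR-34b/c than in vehicle (log2 fold change -0.90, edgeR adjusted p = 0.0051). The other hepatocyte markers were not called.

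Other genes of the pathway, a further list of 39 regulators, receptors and clearance genes, were counted in the same fits. Between AAV-GFP and vehicle 6 of 29 tested were called (4 higher, 2 lower), between the TAA groups 2 of 26 (both higher), and 6 of 27 in AAV-miR-34b/c compared with vehicle (4 higher, 2 lower). Of all genes tested, 12.7%, 3.36% and 21.9% were called in these 3 comparisons, so that the last count was near the share over all genes. *Serpine2*, which encodes the thrombin inhibitor protease nexin 1, was at 20.3 to 61.2 CPM in vehicle, 2.41 to 8.58 CPM in AAV-GFP and 0.683 to 3.84 CPM in AAV-miR-34b/c. It was lower than vehicle in every library of both TAA groups (log2 fold change -2.87, SE 0.31, edgeR adjusted p = 7.83e-06 for AAV-GFP and -4.04, SE 0.33, edgeR adjusted p = 3.24e-06 for AAV-miR-34b/c). *Gas6*, a vitamin K-dependent ligand of TAM receptors, rose against vehicle by 1.54 (SE 0.27) in AAV-GFP and 2.60 (SE 0.40) in AAV-miR-34b/c, and *Tgm2*, which encodes tissue transglutaminase, by 1.21 (SE 0.31) in AAV-GFP and 2.17 (SE 0.28) in AAV-miR-34b/c. *Anxa2*, which encodes a cell surface receptor of plasminogen, rose by 0.99 (SE 0.23) in AAV-GFP, and *C4bp*, which encodes a complement regulator, fell by 0.60 (SE 0.18, edgeR adjusted p = 0.0348).

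The 2 called between the TAA groups were *Fgl1*, a fibrinogen-like protein of hepatocytes, and *Habp2*, which encodes the factor VII-activating protease. *Fgl1* was at 291 to 1520 CPM in AAV-GFP and 1390 to 5480 CPM in AAV-miR-34b/c (log2 fold change 2.01, SE 0.40, edgeR adjusted p = 0.00714), and the groups overlapped through AAV-GFP replicate 5. In this gene too, replicates 5 and 7 were among the lowest of AAV-miR-34b/c, with replicate 6 between them. *Habp2* was at 46.5 to 68.0 CPM in AAV-GFP and 69.9 to 97.6 CPM in AAV-miR-34b/c, with no overlap (log2 fold change 0.51, SE 0.13, edgeR adjusted p = 0.0385), and was higher than vehicle by 0.60 (SE 0.14). *Rgn*, a calcium-binding protein of hepatocytes, was lower with AAV-miR-34b/c than with vehicle by a fitted -0.67 (SE 0.13, edgeR adjusted p = 0.00231).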

How the data were processed

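The authors deposited raw read counts per Ensembl gene for 19 libraries of QuantSeq 3' mRNA-Seq, with single reads of 100 bases. The records give 100 ng of RNA as input, where the paper states a higher amount. The submitters' processing notes name STAR and mm10. The annotation release, how strand was treated and whether molecular identifiers were used were not given in the sources used here. Symbols were matched for 30934 of 31053 genes, and positions are from GENCODE (GRCm38). Counts were tested pairwise in edgeR 4.0.16 (R 4.3.3) by the quasi-likelihood test with TMM and filterByExpr (minimum count 10, minimum total 15). Alternatives used DESeq2 1.42.0, other scalings, no filter, all groups in one fit, a replicate block, summed close pairs, a clock score, and each library left out. Single genes were also compared by exact permutation of the libraries' log2 CPM values (two-sided, prior count 2). The script was tested on simulated data. Members called in any comparison were named with all values, the other members with their range, and of the other pathway genes all called where at most 5 were, otherwise the first 3 by adjusted p, higher and lower separately. One of these pathway genes is counted but not reported by name here. The members and lists were chosen with earlier results of these data known. Intervals and floors cover counting error only. Figures were drawn with matplotlib 3.10.9.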

Additional observations from a re-analysis of the deposited data

Results flagged for a closer look

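The total count of AAV-GFP replicate 5, 4383805, stood apart from the other 6 AAV-GFP libraries, of which the next highest had 3239809 counts. Among 54 sets of values in groups of 5 or 7 libraries, this was the 1 whose extreme library lay farther out than Dixon's 95% critical value, where chance gives about 1 in 20, or 2.7 of 54. Levels in CPM are scaled for the total count. Without this library, 5 members were called between AAV-GFP and vehicle, against 4 with it.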

How the results depend on the processing

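The number of members called depended on the processing in each comparison. Between AAV-GFP and vehicle, 4 members became 2 with all 3 groups in one fit, 8 with the replicate block, 0 with the close pairs summed and 1 with the clock score, and 1 to 5 with 1 library left out (lowest without vehicle replicate 4). Between the TAA groups, 8 became 5 with library size only, 1 with the replicate block (*Fgb*, while *Serpina10* had an edgeR adjusted p of 0.0585), 2 with the close pairs summed and 4 with the clock score, and 3 to 9 with 1 library left out (lowest without AAV-GFP replicate 1, highest without AAV-GFP replicate 4). Between AAV-miR-34b/c and vehicle, 9 became 0 with the close pairs summed and 3 with the clock score, and 5 to 11 with 1 library left out (highest without AAV-miR-34b/c replicate 5 or 7). Summing the pairs leaves 3 units in vehicle, 6 in AAV-GFP and 4 in AAV-miR-34b/c, so that fewer samples enter the fit. The cause of the changed counts was not tested for this or any other setting. Library size only moved the median log2 fold change of all genes to -0.20 between the TAA groups and to -0.13 when AAV-miR-34b/c was set against vehicle. With the clock score, the fitted values against vehicle turned to -0.14 for *Fga*, -0.24 for *Kng2*, -0.0816 for *Serpina10* and -0.10 for *Cpb2* in AAV-miR-34b/c and to -0.25 for *Serpinf2* in AAV-GFP, none of which were called. *Serpinf2* in AAV-GFP, at 0.01, ranged from -0.102 to 0.061 with 1 library left out. The replicate numbers did not pair the samples: deviations of libraries with the same number correlated at -0.10 to 0.24, -0.30 to 0.22 and -0.25 to 0.29 in the 3 comparisons, and 2 of 5, 1 of 7 and 0 of 5 libraries correlated best with their own number. Over the 16 members called in any comparison, 845 of the other values kept direction and side of the threshold, 121 lost and 17 gained a call; the other tested members enter only the counts above. Members with at most 15 counts in any library did not pass the filter on low counts.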

Other observations

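The median coefficient of variation of the 29 tested members was larger in the TAA groups than in vehicle. It was 15.2% in vehicle, 20.2% in AAV-GFP and 24.4% in AAV-miR-34b/c, and the difference was not tested. The highest of any tested member did not follow this order, at 62.5% in vehicle, 41.8% in AAV-GFP and 70.1% in AAV-miR-34b/c. All 36 members together took 3.54% ± 0.532 (SD, n = 5) of counts in vehicle, 2.98% ± 0.564 (SD, n = 7) in AAV-GFP and 5.16% ± 0.876 (SD, n = 7) in AAV-miR-34b/c, of which the 3 fibrinogen chains took 2.08%, 1.67% and 3.57%.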
